A study of Mus musculus with 12 samples.

Results

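Exonic and intronic RNA levels were compared within the total RNA libraries of mouse embryonic stem cells (mESCs), the pluripotent cells of the early embryo. The members are the 91702 transcripts that have an intronic as well as an exonic entry, of 121429 transcripts with an exonic entry. Of them, 72792 matched GENCODE M1 and belong to 23308 genes, of 34079 genes with an exonic entry. Members without a match enter no result per gene. Of the 91702 members, 48087 had both values in all 6 libraries, 67469 had both in at least 1 library, 7224 had only exonic values, 7560 had only intronic values, and 9449 had no value in total RNA.

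The DTCM23/49 XY mESC line was grown on gelatin in serum with LIF, and was divided into 2 cultures that serve as the biological replicates. RNA was taken after 15, 30 or 60 min with 200 µM 4-thiouridine (4sU), a uridine analog that enters newly made RNA, so the total RNA libraries also carry the label and there is no unlabeled control. The 6 total libraries were 1 per culture and labeling time, and 6 libraries of 4sU-labeled RNA from the same plates are used only where named. Culture 1 and culture 2 stand for the replicate numbers 1 and 2 of the labels, which do not name the culture. All libraries come from 1 cell line, and p-values measure the spread between 6 libraries of 2 cultures. In bulk samples, fewer cells of a type and less RNA per cell cannot be told apart.

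A gene is first transcribed with its introns, and the spliceosome removes them during or soon after transcription. Intronic reads in total RNA therefore come from precursors, from introns that are retained in polyadenylated RNA held in the nucleus (detained introns), from excised introns that outlive splicing, and from other transcripts that lie inside an intron. An intronic level is thus a measure of unspliced RNA only where these other sources are small. Levels are abundances per length as deposited, so that exons and introns of a gene, and different genes, are on the same scale, on which every library has nearly the same sum. Sequencing depth cannot be read from these values and no counting error can be given.

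The label of the cells was checked first. All 10 markers of embryonic stem cells had an exonic level of at least 20, and their summed level was 22894 to 32961 per library. The 5 endoderm markers summed to 5.98 to 23.1, with Sox17, Foxa2 and Afp at 0, and the 6 fibroblast markers to 34.5 to 56.8, with Thy1 alone at 20 or more. The ectoderm markers Pax6 and Neurod1 summed to 36.4 to 175 (Sox1 was not matched), and both were at 20 or more, with means of 48.3 and 25.5. The 4 mesoderm markers summed to 10.0 to 22.2 with 1 at 0, and the 3 trophectoderm markers to 1.06 to 8.17, with Cdx2 at 0. Total libraries of culture 1 at 60 min and culture 2 at 15 min had the highest summed intronic level in a group of genes described below, and are said here to stand apart. The other 4 also differed from each other in this group. Results are also given without the libraries that stood apart, an alternative chosen after seeing the data.

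Per length, exonic levels were higher than intronic levels in sum. Introns held 11.5 ± 0.55% (SD, n = 6) of the summed level per length of the members, which is not a share of bases or reads, with 11.4%, 11.6% and 12.1% in culture 1 at 15, 30 and 60 min and 11.1%, 12% and 10.6% in culture 2. The libraries did not order by labeling time, since the 60 min libraries were the highest and the lowest of the 6. Without Malat1, the gene with the highest intronic level, the share was 11.1%, and without the 2 libraries that stood apart it was 11.4%. It was 7.07% when the exons of transcripts without an intronic entry were counted too. The median gene had 14.3 ± 0.99% (SD, n = 6) of its level in introns.

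A gene's exonic and intronic levels were summed over its member transcripts, and the 10326 genes whose mean of both was at least 20 were tested with limma on the log2 ratio of intronic to exonic level. Introns were higher than exons in 850 genes (8.23% of those tested) and exons in 8993 (87.1%), and 483 passed in neither direction (adjusted p of 0.05 or more). Per transcript, introns were higher in 1717 (5.36%) and exons in 29313 (91.6%) of 32011 tested. Without the 2 libraries that stood apart, the counts per gene were 840 and 9036.

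The median gene had an intron-to-exon ratio of 0.166, which is its mean intronic level over its mean exonic level. The middle of the distribution ran from 0.0768 at the lower quartile to 0.369 at the upper quartile, with 0.946 at the 90th percentile. The log2 ratio of a gene varied between the 6 libraries with a median SD of 0.31. The ratio was above 1 in all 6 libraries for 791 genes and below 1 in all 6 for 8821.

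The 850 genes with higher introns were mostly genes with little exonic RNA. Of these, 491 had an exonic mean under 20 and passed the filter only through their introns, so that they had to differ, and 81 of them were listed without any exonic value. Likewise, 3247 of the 8993 genes with higher exons had an intronic mean under 20 and passed only through their exons. Of these 3247, 104 were listed without any intronic value. With both means required to be at least 20, an alternative added after seeing the data, introns were higher in 360 of 6551 genes (5.5%) and exons in 5741 (87.6%). By annotation, 624 of the 850 were protein-coding and 65 were pseudogenes, against 9649 and 275 of all genes tested.

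**Figure D1:**
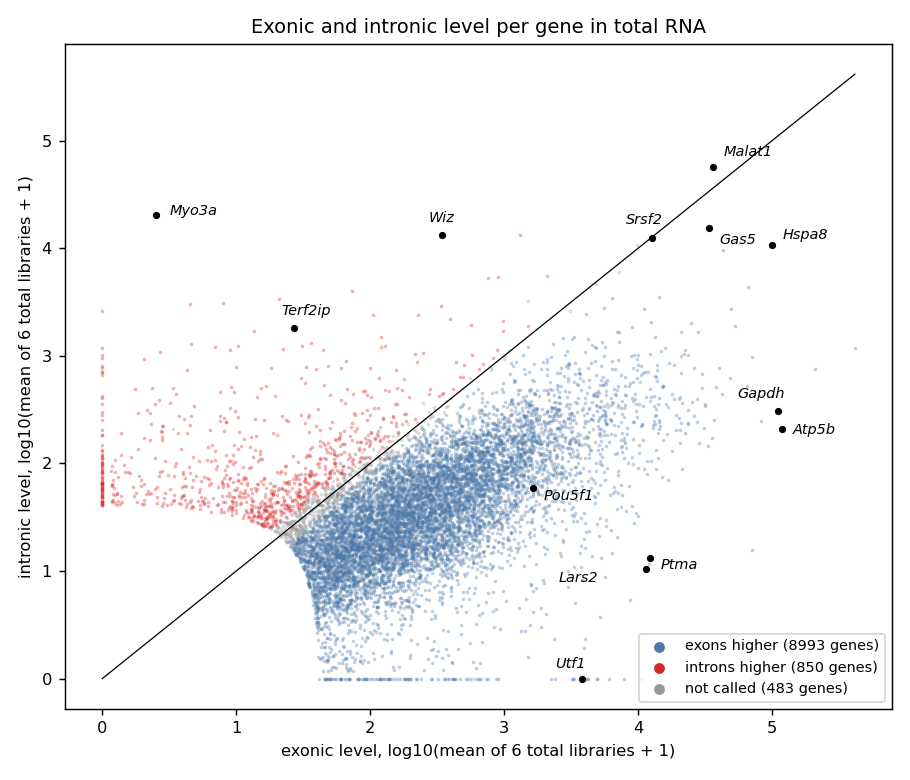
Each point is a gene tested in total RNA, with the log10 of its mean exonic level plus 1 on the x axis and of its mean intronic level plus 1 on the y axis (6 libraries). Of 10326 genes, 850 with higher introns (red) lie above the line of equal levels, 8993 with higher exons (blue) below it, and the filter on the mean level cuts the lower left corner. Points on the axes are listed at 0.

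The intronic signal was concentrated in few genes. The top 10 genes of each library held 13.5 to 19.1% of its intronic level, and the top 100 held 28.1 to 34.3%. Ranked on the mean of the 6 libraries, the 10 genes with the highest intronic level were Malat1, Myo3a, Gas5, Zc3h7a, Wiz, Srsf2, Hspa8, Zfp605, Eif4a2 and Atf2. They comprise 2 noncoding RNAs and 8 protein-coding genes of varied function. Introns were higher than exons in 4 of them, exons were higher in 3, and Srsf2, Zfp605 and Atf2 passed in neither direction.

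Malat1 is an abundant nuclear long noncoding RNA of nuclear speckles that is made largely unspliced. It lies on chromosome 19 from 5795690 to 5802672 (RefSeq positions on GRCm38.p6, the build that the submitters' notes call mm10, here and below). Its intronic level was 56642 ± 18988 (SD, n = 6) and its exonic level 36217 ± 10908. The ratio was 1.47 in the lowest library, 1.53 at the median and 1.68 in the highest, above 1 in all 6 libraries (log2 ratio 0.63 ± 0.07 SE, limma adjusted p = 1.44e-05). Nearly all of the intronic level, 55403, was assigned to the annotated spliced transcript ENSMUST00000173499, whose exonic level was 8999, and 100% of the annotated intron bases of the gene are exonic in other Malat1 transcripts.

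Srsf2, an SR protein that binds exonic splicing enhancers and regulates its own mRNA through alternative exons, was the splicing factor with the highest intronic level. It lies on chromosome 11 from 116849897 to 116853675. Its intronic level was 12326 ± 730 and its exonic level 12785 ± 475 (SD, n = 6). The ratio ranged from 0.879 through a median of 0.958 to 1.09, so the libraries fell on both sides of 1 (log2 ratio -0.05 ± 0.07 SE, limma adjusted p = 0.461). Of its annotated intron bases, 94% are exonic in another transcript.

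Gas5, Hspa8 and Eif4a2 are host genes of small nucleolar RNAs (snoRNAs), which are cut out of excised introns and guide the modification of ribosomal RNA. Gas5, whose spliced RNA is unstable because it is degraded on translation, had an intronic level of 15536 ± 4101 against an exonic level of 33659 ± 3020 (SD, n = 6). The Gas5 ratio was 0.267 at its lowest, 0.499 at the median and 0.630 at its highest. The introns of Gas5 hold 9 annotated snoRNA genes, those of Eif4a2 hold 5 and those of Hspa8 hold 3.

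Hspa8, the constitutive heat shock cognate chaperone, had the 7th highest intronic level through its exonic level of 99724 ± 8243, since its ratio was only 0.102 to 0.114 with a median of 0.108. Eif4a2, an RNA helicase of translation initiation, had a ratio of 0.199 to 0.249 with a median of 0.221. Exons were higher than introns in all 6 libraries for Gas5, Hspa8 and Eif4a2, with limma adjusted p of 0.000148, 3.56e-10 and 4.55e-09. Of the intron bases of Gas5, 99.1% are annotated as exonic in some transcript, against 97% for Hspa8 and 63.4% for Eif4a2.

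Myo3a, a myosin of sensory hair cells that these cells hardly expressed, had the 2nd highest intronic level, 20409 ± 1895, with an exonic level of 1.52 ± 1.30 (SD, n = 6). It lies on chromosome 2 from 22227503 to 22618252. Its introns contain the pseudogene Gm13340, annotated on the opposite strand, whose own exonic level was 153696. Zfp605, a zinc finger protein, had an intronic level of 10639 ± 1064 and an exonic level of 9810 ± 590, with a ratio of 0.974 to 1.29 (limma adjusted p = 0.182). Its introns contain the pseudogene Gm15484, with an exonic level of 52686. The part of these pseudogenes in the intronic levels was not tested, and the strand setting of the quantification is not given in the sources used here.

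Wiz, a zinc finger partner of the histone methyltransferases G9a and GLP, had an intronic level of 13185 ± 1960 against 340 ± 37.7 in exons (SD, n = 6). Of its intron bases 13% are annotated as exonic, and its introns hold no other gene with an exonic value. The ratio was 33.2 in the lowest library, 37.8 at the median and 45.4 in the highest (log2 ratio 5.27 ± 0.08 SE, limma adjusted p = 1.14e-10). The signal was split over its transcripts, with 2655 in the introns of ENSMUST00000171728 and 2111 in those of ENSMUST00000172216, which share introns with the other Wiz transcripts.

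Zc3h7a and Atf2 had high intronic levels in some libraries only. Zc3h7a encodes a zinc finger protein that binds microRNA precursors, and its intronic level was 13326 ± 9639 (SD, n = 6), with a ratio of 2.05 at its lowest, 8.17 at the median and 30.7 at its highest. Atf2, a basic leucine zipper transcription factor, had a ratio of 0.116 at its lowest, 0.454 at the median and 2.59 at its highest. Atf2 passed in neither direction in all 6 libraries (log2 ratio -1.0 ± 0.63 SE, limma adjusted p = 0.154), and without the 2 libraries that stood apart its exons were higher (log2 ratio -2.13, limma adjusted p = 0.00213).

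**Figure D2:**
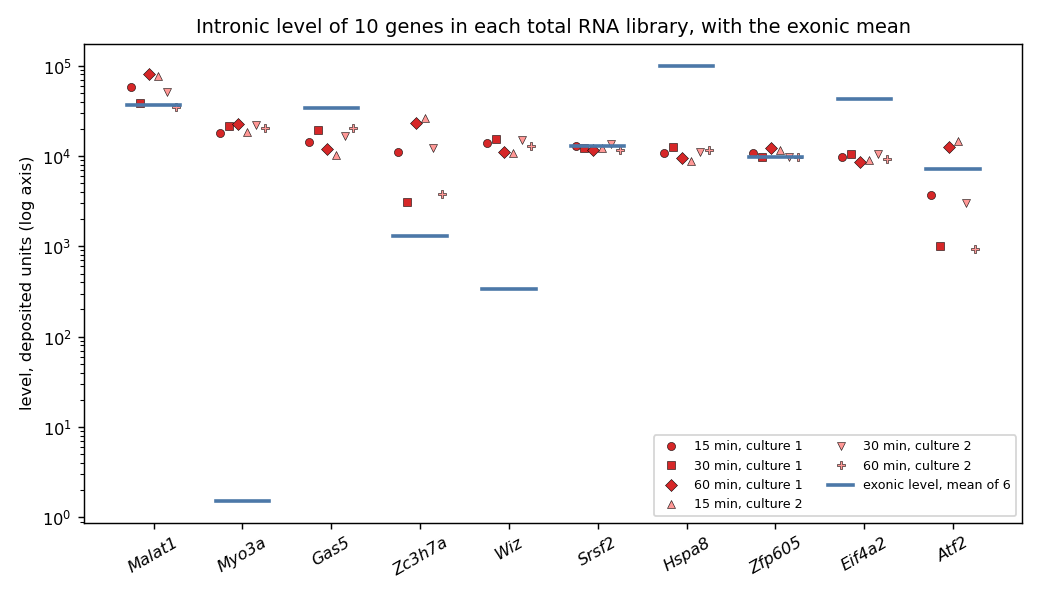
Intronic levels of the 10 genes with the highest mean intronic level are plotted per total RNA library on a log axis, with each gene's mean exonic level as a blue bar. Myo3a and Wiz lie far above their exonic bars in all 6 libraries, Hspa8 lies below its bar in all 6, and Zc3h7a and Atf2 spread more widely between libraries than Srsf2 and Eif4a2.

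The spread of Zc3h7a and Atf2 was shared by other introns. Among 7056 genes tested with an intronic mean of at least 20, the median SD of the log2 intronic level between libraries was 0.23, and 69 genes had an SD above 1. The group described here is Zc3h7a and the genes among these whose introns followed it with a Pearson r above 0.9 over the 6 libraries, 21 genes with Zc3h7a itself, by a rule chosen after seeing the data. Their summed intronic level was 60846 in culture 2 at 15 min and 54196 in culture 1 at 60 min. It was 21418 in culture 1 at 15 min and 22002 in culture 2 at 30 min, and 7189 in culture 1 at 30 min and 8327 in culture 2 at 60 min. The order of the libraries followed neither culture nor labeling time.

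After Zc3h7a and Atf2, the highest intronic levels of this group were those of Arhgap21, with 6406 in culture 2 at 15 min and 1163 in culture 1 at 30 min, and of Ica1, with 2114 and 172. These introns made up 0.638% of the intronic level of the library where they were lowest and 5.87% where they were highest. The introns of Malat1 were also highest in the same 2 libraries, 80611 and 76684, and lowest in the same other 2, 38451 and 34974. The exons of Lars2, the mitochondrial leucyl-tRNA synthetase, were highest and lowest in the same libraries, with 27731 and 23177 in the high libraries against 2393 and 2755 in the low libraries. The introns of Wiz were instead lowest in the high libraries, with 10764 and 11090 against 15378 and 12883. Those of Sntb1, Tex21, Sh3bp4 and Cd84, described below, were also lowest there, while those of Chmp1a and Lats2 were highest there. Exonic levels of some other genes were also highest in the 2 high libraries and lowest in the 2 low ones. Those of Malat1 were 45578 and 50118 against 24670 and 23167, and those of Nanog 8631 and 7404 against 3712 and 3973. Pou5f1 exons did not follow, with 1493 and 1674 against 1621 and 1529, and genes of either kind were not counted. Whether RNA quality or residual ribosomal RNA moved with these levels was not tested.

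**Figure D3:**
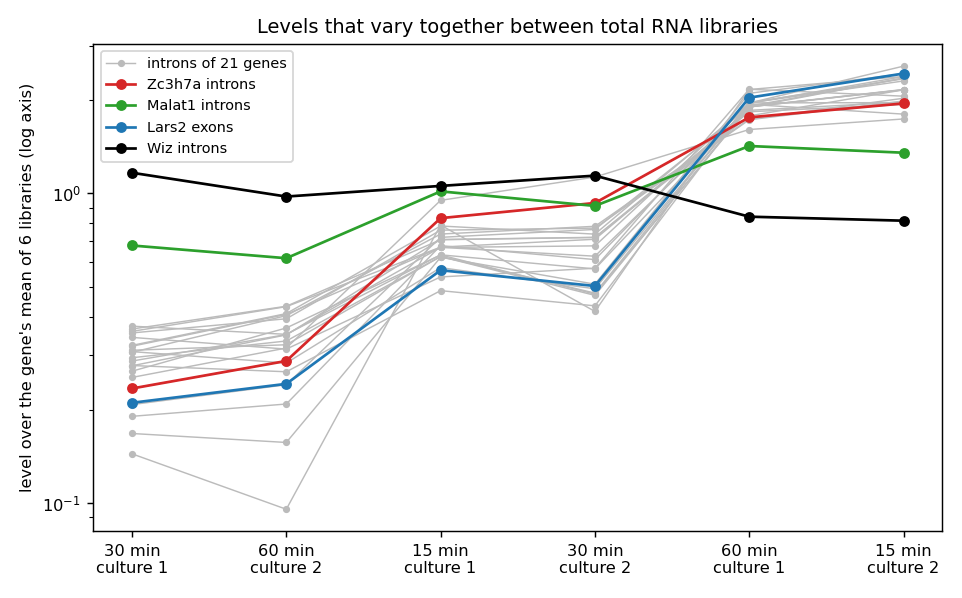
Levels in each total RNA library are divided by the gene's mean over the 6 libraries and plotted on a log axis, with the libraries ordered by the level of Zc3h7a introns. The introns of 21 genes (grey and red) and the exons of Lars2 (blue) are highest in culture 2 at 15 min and culture 1 at 60 min. Malat1 introns (green) follow with a smaller range, and Wiz introns (black) are lowest in these 2 libraries.

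The genes with the most intronic signal for their exonic level were taken among those with higher introns, both means of at least 20 and the same direction in all 6 libraries, which left 318 genes. The 10 highest ratios were those of Terf2ip (70.1), Cd84 (56.2), Sntb1 (54.0), Tex21 (41.2), Wiz (38.7), Chmp1a (37.7), Sh3bp4 (26.1), Adhfe1 (24.5), Pnpla7 (23.0) and Lats2 (20.9), and Ssh2 (19.4) was just outside. Their exonic means were 21.5 to 340. The ratios chose these genes and are given as a description.

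In 5 of these 10 genes the introns contain another expressed gene. Terf2ip, a subunit of the telomere-protecting shelterin complex, contains Gm6793 with an exonic level of 9302. Chmp1a, a subunit of the ESCRT-III membrane-remodeling complex, contains Gm10279 with 7151, and Adhfe1 contains Gm6161 with 2971. Pnpla7, a lysophospholipase, contains Gm13370 with 7029, and Lats2, a kinase of the Hippo pathway, contains the pseudogene RP24-92H14.2 with 11766. The part of these inner genes in the intronic level of their hosts was not tested.

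Cd84, Sntb1, Tex21 and Sh3bp4 contain no other annotated gene, and at most 6.67% of their intron bases are exonic in any transcript. Sntb1, a syntrophin of the dystrophin complex, had an intronic level of 1159 ± 159 against 21.5 ± 9.07 in exons, with a ratio of 37.3, 52.6 and 105 in the lowest, the median and the highest library. Sh3bp4, an endocytic adaptor, had 1136 ± 185 against 43.5 ± 2.98, with a ratio of 20.1, 26.0 and 31.2. Cd84, a receptor of blood cells, had 4045 ± 664 against 71.9 ± 19.5, with a ratio of 49.3, 54.8 and 70.3. The libraries of each of these genes stayed far from a ratio of 1, while the exonic level was low in each.

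A stricter set was made of 3603 tested genes in which under 1% of intron bases are annotated as exonic, a choice made after seeing the data. Introns were higher in 258 of them (7.16%) and exons in 3252 (90.3%). Among those with both means of at least 20, Sntb1, Tex21, Sh3bp4, Filip1l and Ica1 had the highest ratios, and the last 2 belong to the group that varied between libraries. Slc4a4, a sodium bicarbonate cotransporter, followed with a ratio of 10.1 to 18.1 between libraries, and Ttbk2, a kinase needed to start the growth of cilia, had 3.84 to 5.62. Their intronic levels were 768 ± 108 and 745 ± 137 (SD, n = 6). They were named after their values were seen.

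At the other end were abundant mRNAs with next to no intronic signal. Of 709 genes with an exonic mean of at least 2000 and an intronic value in all 6 libraries, the lowest ratios included those of Lars2, Gm5148, Ptma, Rps27, Atp5b, Gm19840, Rps29, Gm13423 and Gm7808, from 0.000834 to 0.00268, with Gapdh (0.00279) near the edge of this set. Ptma, the abundant nuclear protein prothymosin alpha, had 12.1 ± 3.02 in introns against 12163 ± 812 in exons (SD, n = 6). Atp5b, the catalytic beta subunit of ATP synthase, had 208 ± 40.0 against 119101 ± 17328, a ratio of 0.00147 to 0.00197. The Lars2 ratio varied from 0.000322 to 0.00433, since its exonic level ranged from 2393 to 27731 while its introns stayed at 8.14 to 10.4. Processed pseudogenes and paralogs of such abundant genes share reads with them, so their exonic levels are uncertain, and for Gm7808 the annotation used here gives no intron.

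Genes were then grouped by function, and each group is described by its counts and its median ratio, beside the median of 0.166 over all genes tested. The groups were not matched for exonic level, with which the ratio fell (below). Members with an intronic mean under 20 passed the filter only through their exons, so their direction was fixed. The median exonic level was 174 over all genes tested, 9617 for ribosomal proteins and 51.6 for nuclear and imprinted long noncoding RNAs. Core and naive pluripotency genes had less intronic than exonic level in all 28 members that have both entries, all of which passed the filter (exons were higher in 87.1% of all genes tested). Their median ratio was 0.0678, and 2 of 28 lay above the median of all genes. Pou5f1, which encodes the core pluripotency factor Oct4, had 58.6 ± 21 in introns against 1645 ± 121 in exons, with a ratio of 0.0260, 0.0320 and 0.0600 in the lowest, the median and the highest library. Nanog, the homeodomain factor of naive pluripotency, had 274 ± 68.7 against 5712 ± 1939, with a ratio of 0.0380, 0.05 and 0.0585. Its exonic level was 8631 and 7404 in the 2 libraries that stood apart, and 3712 to 5369 in the others. The ratio was highest for Prdm14, a repressor of differentiation genes, at 0.142 to 0.353. Utf1, a chromatin-bound factor of undifferentiated cells, was listed without an intronic value in all 6 libraries beside an exonic level of 3838 ± 406, and its intron is 97 bases long. Sox2 has no intronic entry and is no member.

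Of 17 germ-layer and trophectoderm markers with both entries, 2 passed the filter, Gata4 and Pax6. Among such markers in the check of the cells above, only Pax6 and Neurod1 had an exonic mean of 20 or more. Gata4, a transcription factor of endoderm and heart, had 142 ± 46.8 in introns against 11.6 ± 6.13 in exons (SD, n = 6), with a ratio of 4.48 at its lowest, 13.8 at the median and 34.0 at its highest (limma adjusted p = 6.23e-06). Its introns hold no other annotated gene, and it passed the filter only through them. Most of this level, 53.5, 48.9 and 35.7, was assigned to ENSMUST00000132122, ENSMUST00000137244 and ENSMUST00000156782, whose exonic levels were 0.383, 0 and 0.47. The transcript with the highest exonic level, ENSMUST00000121312, had 5.39 in exons and 0 in introns. For ENSMUST00000067417 and ENSMUST00000118022 the ratios were 0.878 and 0.764, so the gene's ratio does not describe its transcripts with exonic signal. Its intronic level was highest, 203 and 190, in the 2 libraries that stood apart, and its introns were also higher without them (log2 ratio 3.05, limma adjusted p = 6.28e-05, against 3.57 with all 6). Pax6, a regulator of the neural plate and eye, had an intronic value of 226 in culture 1 at 15 min, of 2.58 in culture 1 at 30 min and of 0 in the other 4 libraries.

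Housekeeping groups had medians below that of all genes. Cytosolic ribosomal proteins had a median ratio of 0.0108, with exons higher in 80 of 80, from Rps27 at 0.00137 to Rpl9 at 0.0801. Subunits of the respiratory chain had a median of 0.0446, with exons higher in 74 of 75. Uqcrq, a subunit of complex III, passed in neither direction, with a ratio of 0.545 at its lowest, 1.07 at the median and 1.36 at its highest. Without the 2 libraries that stood apart, the introns of Uqcrq were higher (log2 ratio 0.26, limma adjusted p = 0.0349). Proteasome subunits had a median of 0.0466 and glycolysis enzymes of 0.0461, with exons higher in 30 of 31 and 15 of 16.

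The exception in each of the last 2 groups was a gene with higher introns. Psmd13, a subunit of the regulatory particle of the proteasome, had 5446 ± 582 in introns against 893 ± 131 in exons, and its introns contain the pseudogene Gm15542 with an exonic level of 6971. Hk1, a hexokinase that starts glycolysis, had 1208 ± 216 against 119 ± 22.2, a ratio of 6.89 at its lowest, 11.1 at the median and 12 at its highest, and its introns contain no other annotated gene. Its intronic level was mostly assigned to transcripts with little or no exonic level, such as ENSMUST00000140383 (145 against 0.378) and ENSMUST00000133429 (134 against 0). The transcript with the highest exonic level, ENSMUST00000072357, had 3.08 in introns against 24.7 in exons. In contrast, ENSMUST00000116238 had 93.2 in introns against 19.5 in exons. For comparison, Gapdh had a ratio of 0.00223 to 0.00321.

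Genes of splicing itself had a median ratio near that of all genes, but at a median exonic level of 1951 against 174. In the fifth of genes with the highest exonic level, 663 or more, the median ratio was 0.0720. Of 33 CLK kinases, Tra2 proteins, SR proteins and partners, a list drawn up for genes known for detained introns, exons were higher in 31 and introns in 1, and the median ratio was 0.135. Clk1 and Clk4, kinases that phosphorylate SR proteins, had ratios of 0.0647 to 0.118 and 0.153 to 0.232, with medians of 0.0996 and 0.165. Of their intron bases, 41.1% and 16.6% are annotated as exonic in some transcript. Both genes have transcripts annotated as retaining an intron, and signal assigned to the retained bases counts as exonic here. Luc7l, a partner of the U1 particle that recognises the 5′ splice site, had 5250 ± 345 in introns against 755 ± 104 in exons (SD, n = 6), with a ratio of 6.28 at its lowest, 6.96 at the median and 8.06 at its highest. Its introns contain the pseudogene Gm16580, with an exonic level of 13117. The values of this group lay on both sides of the median gene, with 13 of 33 above it. The hnRNP genes, which code for abundant RNA-binding proteins that often oppose SR proteins, had a median of 0.0771, from Hnrnpa3 at 0.0114 to Hnrnpa2b1 at 0.235, with exons higher in 17 of 17.

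Nuclear and imprinted long noncoding RNAs had the highest median of the groups with at least 6 genes tested, 1.12 over 7 genes, with introns higher in 3 and exons in 3. Airn, the noncoding RNA that silences Igf2r on the paternal chromosome and is mostly unspliced, had 67.5 ± 4.08 in introns against 6.85 ± 8.70 in exons (SD, n = 6), and passed the filter only through its introns. Its exonic value was 0 in the 2 libraries that stood apart, beside 63.1 and 64.5 in introns, and over the other 4 libraries its ratio was 2.91 to 12.8. The introns of Airn contain 3 other genes, of which the pseudogene Gm7162 had the highest exonic level, 18.5. Neat1, the scaffold of paraspeckles, had 15.2 ± 10.1 in introns against 126 ± 35.4 in exons, and 100% of its intron bases are exonic in other transcripts.

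Small nucleolar RNA host genes had a median of 0.108 with exons higher in 17 of 17, from Cct6a, a subunit of the TRiC chaperonin, at 0.00189 to Snhg3 at 0.558. Polycomb genes, which keep developmental genes silent, had a median of 0.128, with exons higher in 25 of 27. The introns of Cbx6, a chromodomain subunit of PRC1, were higher, with a ratio of 1.08 at its lowest, 1.28 at the median and 2.01 at its highest (limma adjusted p = 0.0122), and 0.26 on the log2 scale (limma adjusted p = 0.184) without culture 1. DNA methyltransferases and Tet enzymes had a median of 0.0443 with exons higher in 9 of 9, and Tet1, which oxidises 5-methylcytosine, the lowest ratio of 0.0117 to 0.0172 between libraries. Cyclins and MCM helicase subunits had a median of 0.0878 (exons higher in 22 of 22), cholesterol synthesis genes of 0.133 (19 of 19) and immediate early genes of 0.0396 (6 of 6). The median intronic level of these immediate early genes was 6.82, and members under 20 passed the filter only through their exons.

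**Figure D4:**
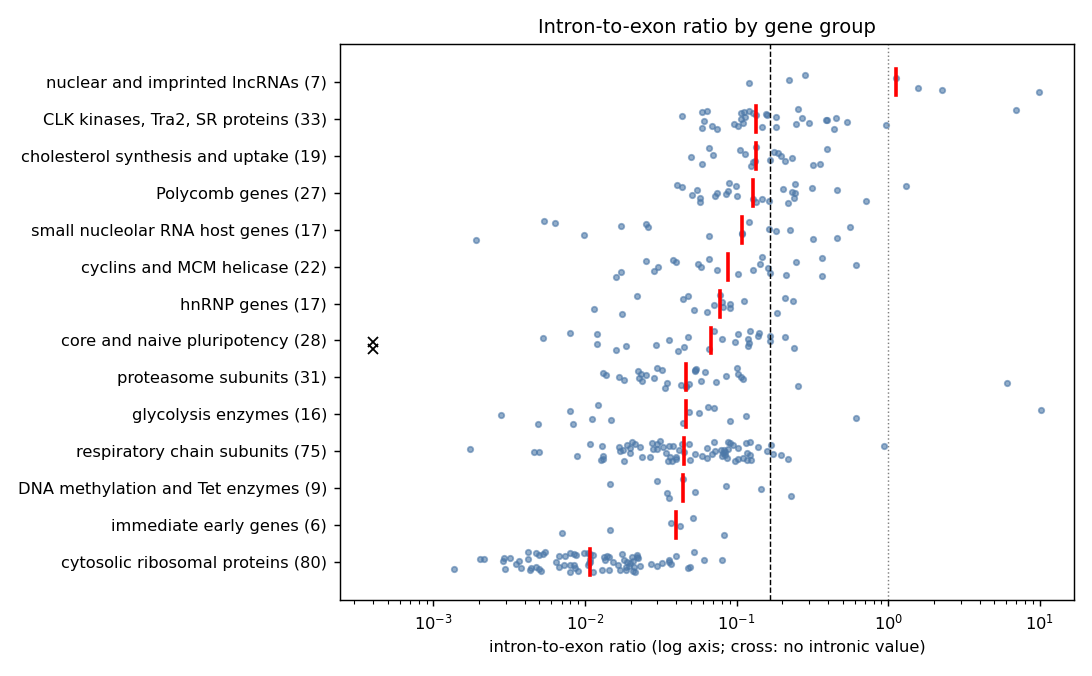
Each point is a gene, with its intron-to-exon ratio in total RNA on a log axis and the number of genes tested per group in brackets. Red bars are group medians, the dashed line is the median of all genes (0.166) and the dotted line is equal intronic and exonic level. Groups with at least 6 genes tested are shown. Of these, ribosomal protein genes (median 0.0108) lie lowest and nuclear and imprinted long noncoding RNAs (median 1.12) highest.

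The ratio fell with the exonic level of a gene. In the fifth of genes with the lowest exonic level, the median ratio was 0.632, and 33.9% of genes had higher introns. In the fifth with the highest exonic level, the median was 0.0720, and 0.534% had higher introns. Across 10302 genes the Spearman correlation was -0.611, a description that shares the exonic level between both measures and is shaped by the same filter. By intron length the ratio had medians of 0.129, 0.165, 0.187, 0.176 and 0.168 from the fifth with the shortest to that with the longest introns and a Spearman correlation of 0.11. With the number of introns the correlation was -0.0638, the median fell from 0.195 in genes with 1 to 2 introns to 0.139 in those with 13 or more, and the share of genes with higher introns from 13.7% to 4.68%. The share of intron bases annotated as exonic had a correlation of 0.151. Genes are not independent replicates, and lengths come from the annotated transcript with the highest exonic level.

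**Figure D5:**
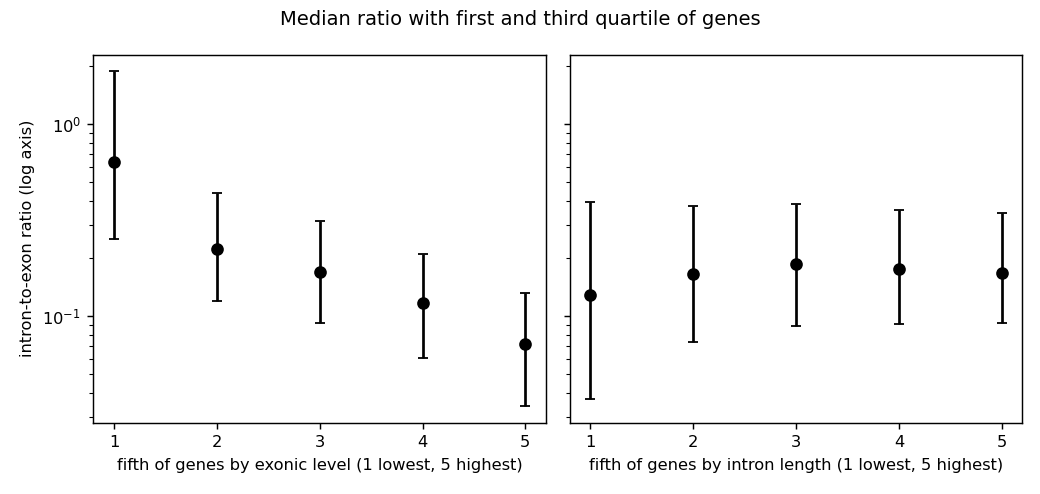
Median intron-to-exon ratio with the lower and upper quartile of genes on a log axis, for 5 equal classes of genes by exonic level (left) and by intron length (right). The median falls from 0.632 to 0.0720 with exonic level, and lies between 0.129 and 0.187 at every intron length. In the lowest class by exonic level, genes with an exonic mean under 20 passed the filter only through their introns.

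LincRNAs and antisense transcripts had higher median ratios than mRNAs, which did not hold for every noncoding type. The median ratio per transcript was 0.112 for 16002 protein-coding transcripts, 0.531 for 76 lincRNAs and 0.870 for 160 antisense transcripts, and introns were higher in 3.67%, 35.5% and 42.5% of these. The median exonic levels were 106, 84.5 and 35.1, so the antisense transcripts were also less abundant. Transcripts with an exonic level under 20 passed the filter only through their introns. Those with an intronic level under 20 passed only through their exons, and the median intronic level of protein-coding transcripts was 14.1. The 4173 transcripts of the type processed transcript had a median of 0.144, with introns higher in 7.26%. For 161 transcribed processed pseudogenes the median was 0.0654, below that of protein-coding transcripts. Transcripts annotated as retaining an intron had a median of 0.115 over 4197, and targets of nonsense-mediated decay, the pathway that degrades mRNAs with early stop codons, a median of 0.145 over 1594. A retained intron is part of an annotated exon of its transcript, so the ratio of the former covers their other introns only. Reads of an antisense transcript and of its partner gene cannot be told apart without strand. No test was made between these types, since transcripts of a gene share introns.

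Labeling time was compared to ask whether longer 4sU exposure altered the unspliced part of total RNA. No gene passed the adjusted threshold between 60 and 15 min in either direction (limma, 0 of 10326 genes, 0% called), while 282 had a higher and 99 a lower ratio at an unadjusted p under 0.05. With no minimum level, 9 genes were higher and 12 lower. The median change was 0.06 on the log2 scale. It was -0.064 without culture 1 and 0.18 without culture 2, so its direction differed between the cultures, and these 2 values have no test.

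The labeled libraries, which did not choose the genes above, were set beside total RNA. All 10 genes with the highest ratios in total RNA had higher introns than exons in all 6 labeled libraries, and all 10 with the lowest ratios had higher exons. For Wiz the labeled ratio was 18.0 to 44.1 with a median of 38.9, and for Sntb1 it was 47.1 to 128 with a median of 84.5. For Pou5f1 it was 0.0614 to 0.201 with a median of 0.139, and all 6 labeled libraries lay above all 6 total libraries.

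Over all genes, the ratio was higher in labeled than in total RNA in 2721 of 10905 genes (limma, 25%) and lower in 39 (0.358%), with a median difference of 0.68 on the log2 scale. With each library centred on its median gene, the counts were 543 and 506. The labeled libraries differed widely, with a median ratio of 0.547, 0.270 and 0.459 in culture 1 at 15, 30 and 60 min and of 0.166, 0.340 and 0.220 in culture 2, against 0.167 to 0.208 in total RNA. The labeled library of culture 2 at 15 min lay just below the total libraries, and without it, an alternative chosen after seeing the data, 6143 genes were higher and 61 lower. Without culture 1 518 were higher, and without culture 2 4588 were.

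Among the groups, beside the 25% of all genes with a higher ratio in labeled RNA, the ratio was higher in 69 of 80 ribosomal protein genes, with a median log2 difference of 1.31, and lower in none. With each library centred, it was higher in 21 of these 80 (4.98% of all genes) and lower in none (4.64% of all genes). Uncentred, it was higher in 12 of 16 glycolysis enzymes and 40 of 75 respiratory chain subunits, and centred in 5 and 3, with 1 respiratory chain subunit lower. In pluripotency genes it was higher in 8 of 28, a share near that of all genes, and centred in 3. In the splicing list it was higher in 5 of 33 and lower in 1, with a median of 0.45, and centred in 0 and 8. In nuclear and imprinted long noncoding RNAs it passed in 0 of 8, with a median of -0.32, and centred it was lower in 3. These groups were not tested against each other.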

How the data were processed

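Ribosomal RNA reads were discarded by the authors after a first STAR 2.5.0 alignment. The remaining reads were aligned with STAR to exonic and intronic sequence and quantified with RSEM. The submitters' notes name mm10, and the RSEM version and strand setting are not given in the sources used here. The deposited values are a length-normalized signal of exons and introns. Their scaling and cutoff are not given in the sources used here, but the values of each library had nearly the same sum, and the lowest value present was 1.01. Missing values were taken as 0 here. Depth is unknown, so no counting interval was computed.

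Transcripts were joined to genes by GENCODE M1 (72792 of 91702 matched), which is annotated on mm9 and was used for names, types and lengths only. Positions are from RefSeq on GRCm38.p6. No sequence is printed.

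log2(intronic value + 1) minus log2(exonic value + 1) per library was tested against 0 with limma 3.58.1 in R 4.3.3, with a trend on mean level, for genes with a mean of both levels of at least 20, and Benjamini-Hochberg adjustment at 0.05. This scale understates ratios of low levels. The 60 against 15 min contrast used labeling time as a factor, and labeled against total RNA used it as a covariate over 12 libraries. The method was tested on simulated data. Other steps used Python 3.11.15 with pandas 2.3.3, numpy 2.4.6, scipy 1.17.1 and matplotlib 3.10.9.

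Named genes are the 10 with the highest intronic level, the 10 with the highest ratio (introns higher, both means of at least 20, same direction in all 6 libraries), the 10 with the lowest ratio (exonic mean of at least 2000, intronic value in all 6 libraries), the 5 largest rises and falls among genes called between 60 and 15 min (there were none), the member of each group with the highest exonic level and the highest and lowest ratio, and Malat1, Neat1, Pou5f1, Sox2, Nanog, Clk1 and Clk4. Other genes named were chosen after their values were seen. A gene of the rule is not reported here. The members and lists were chosen with earlier results of these data known. Of the fibroblast list 1 of 10 genes passed the filter (exons higher), and of 19 replication-dependent histone genes 1 had both entries (exons higher).

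The labels give a replicate number and do not name the culture. This number is taken here to mark the culture and to pair its libraries. Deviations of same-numbered libraries correlated by 0.0867, -0.195 and -0.104 between labeling times of total RNA, and by -0.0470, 0.0287 and -0.256 between labeled and total RNA. Alternatives comprised the pseudocount, the filters, the libraries, the replicate block and the scaling.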

Additional observations from a re-analysis of the deposited data

Results flagged for a closer look

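In 4 of 72 groups of 6 libraries, the log2 of intronic over exonic level had a library far from the rest, by the gap to the nearest library over the whole range. About 1 in 20 groups, or 3.6, would be found by chance.

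For Pax6 culture 1 at 15 min was at 1.95 on the log2 scale, and the others were at -5.30 to -4.10. For Cbx6 culture 1 at 30 min was at 0.98, and the others were at 0.10 to 0.40. For Pou5f1 culture 1 at 60 min was at -4.05, and the others were at -5.24 to -4.84. For Hist1h2bc, a histone gene whose annotated intron was nearly empty, culture 1 at 60 min was at -11.12, and the others were at -9.12 to -8.30.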

How the results depend on the processing

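Requiring no minimum level gave 14782 transcripts with higher introns and 48358 with higher exons, 4358 genes with higher introns, and 9 genes higher and 12 lower at 60 against 15 min. Requiring values in all libraries gave 3807 transcripts with higher introns. Requiring both means of at least 20 gave 653 and 8866 transcripts and 360 and 5741 genes, and introns under 1% annotated exonic gave 258 and 3252 genes, as fewer were tested. The labeled ratio was lower in 61 genes with a pseudocount of 20, in 76 with no filter and in 17 with both means of at least 20. Centred on library medians it was higher in 543 and lower in 506, and without the labeled library of culture 2 at 15 min in 6143 and 61. Leaving out a culture gave 518 to 4588 genes with a higher labeled ratio and 39 to 75 with a lower one, and a median log2 change at 60 min of -0.064 to 0.18, a reversal. The cause was not tested. The intronic share was 14.3% as a median over genes and 7.07% with exons of all transcripts.

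Uqcrq turned to 0.26 without the total libraries of culture 1 at 60 min and culture 2 at 15 min. Of the other named genes, Pax6 lost its call with a pseudocount of 20 and without culture 2, Cbx6 without culture 1, and Atf2 gained a call. With the replicate block, introns were higher in 1702 transcripts and 850 genes and exons in 29267 and 8980, 0 genes passed at 60 against 15 min (median 0.06), and labeled ratios were higher in 3231 and lower in 44. The block changed no call of a named gene. Leaving out a culture gave 723 to 815 genes with higher introns and 8739 to 8902 with higher exons, and with 4sU in every library and 2 cultures of 1 line, small differences of labeling time could not be detected.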

Other observations

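Other genes that stood out by their exonic level belong to no group above, and were named after their values were seen. The exonic level was led by Npm1, which encodes the nucleolar protein nucleophosmin, at 414932 ± 77676 (SD, n = 6), with 1169 ± 224 in introns. Hsp90aa1, a stress-inducible chaperone, followed with 208334 ± 20651 in exons and 759 ± 106 in introns. Eef1a1, the elongation factor that brings tRNAs to the ribosome, had 83369 ± 4513 in exons and 249 ± 248 in introns. Their ratios were 0.00282, 0.00364 and 0.00299, all below that of the median gene.

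Unprocessed pseudogenes, copies that keep the introns of their parent gene, had the highest median ratio of the transcript types with at least 12 tested, 1.97, with introns higher in 10 of 12. Among the genes annotated as pseudogenes, Gm7729 had an intronic level of 2109 ± 273 against 987 ± 53.9 in exons, with a ratio of 1.89 to 2.39 over the 6 libraries, and 0% of its intron bases are annotated as exonic.

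The 21 introns that varied together summed to 3345 to 23729 in the labeled libraries, with the highest value in culture 2 at 60 min and the lowest in culture 2 at 15 min, where the total library had its highest.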
